A study of Mus musculus with 5480 samples.

Results

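The genes that fold, modify and trim newly made collagen were followed through the mesenchyme of the developing mouse lung. They were 10 genes taken by symbol from the 18072 in the deposited read counts, and all 10 were found: the chaperone Serpinh1, the prolyl 4-hydroxylase subunits P4ha1, P4ha2, P4ha3 and P4hb, the lysyl hydroxylases Plod1, Plod2 and Plod3, the procollagen C-proteinase Bmp1 and its enhancer Pcolce. The counts came from 5480 single cells of distal lung, which flow cytometry had sorted into wells for sequencing, and the study addressed how mesenchymal cell types change with neonatal age and under hyperoxia, the breathing of oxygen-enriched air. There were 10 mice in 5 groups, with 1 female and 1 male in each: late gestation (E18.5) and day 1, day 7 or day 21 after birth (P1, P7, P21), all labelled normal, and P7 in hyperoxia. The labels give no strain, genotype, litter, oxygen level or length of exposure. Apart from the test between classes, edgeR p-values rest on the spread between mice left after group and sex. That spread is taken over all groups of a fit, with only 2 mice in each, and is drawn towards the spread of the other genes tested.

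Collagen chains are modified while they are still being made in the endoplasmic reticulum. Prolyl 4-hydroxylase is a tetramer of alpha subunits, which carry the active site, and beta subunits, and its product, 4-hydroxyproline, keeps the triple helix stable at body temperature. Lysyl hydroxylases prepare lysines for glycosylation and cross-linking, the chaperone HSP47 binds the folded triple helix on its way out of the endoplasmic reticulum, and outside the cell the propeptides are cut off so that fibrils can form. In the lung, fibroblasts, myofibroblasts and smooth muscle cells all lay down collagen as alveoli are built.

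The sequences shown are the promoters of the 3 alpha subunit genes, because the leading alpha subunit differed between cell types (levels below). Each is the 250 bases before 1 RefSeq start of the gene in GRCm38.p6, the first listed for its symbol, read 5′ to 3′ on the strand of the gene. They are chr10:59323046-59323295 (forward strand) for P4ha1, chr11:54100674-54100923 (forward strand) for P4ha2 and chr7:100285270-100285519 (forward strand) for P4ha3. In the GENCODE M21 annotation P4ha2 starts further upstream, at chr11:54100095, so its window lies inside the gene. That of Pcolce, counted below, does too. Matches hold for these starts only. Capitals mark ACGTG, the core letters of hypoxia response elements, and GGGCGG, the letters of a GC box, each on either strand and with overlapping matches counted separately.
P4ha1: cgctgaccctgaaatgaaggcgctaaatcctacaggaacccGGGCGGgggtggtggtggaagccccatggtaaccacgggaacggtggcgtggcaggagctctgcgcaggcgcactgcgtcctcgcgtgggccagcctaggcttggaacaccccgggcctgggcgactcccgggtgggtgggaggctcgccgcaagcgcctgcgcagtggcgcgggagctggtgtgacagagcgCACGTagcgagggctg
P4ha2: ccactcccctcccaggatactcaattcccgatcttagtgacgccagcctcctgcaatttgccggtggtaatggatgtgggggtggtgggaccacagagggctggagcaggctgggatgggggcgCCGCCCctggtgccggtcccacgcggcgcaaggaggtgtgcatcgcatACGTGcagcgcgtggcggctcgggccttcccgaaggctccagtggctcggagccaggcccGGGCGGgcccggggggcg
P4ha3: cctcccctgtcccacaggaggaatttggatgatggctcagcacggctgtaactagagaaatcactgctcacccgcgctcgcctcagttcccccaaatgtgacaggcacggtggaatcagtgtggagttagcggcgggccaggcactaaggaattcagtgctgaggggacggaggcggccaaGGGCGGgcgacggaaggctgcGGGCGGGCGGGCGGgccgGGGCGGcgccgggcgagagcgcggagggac
ACGTG was found once in P4ha1, with its first base at -16 from the start, once in P4ha2 at -78, and 0 times in P4ha3. The same letters stood in 5 of the 8 members with a promoter entry (Serpinh1, P4ha1, P4ha2, P4hb and Plod3) and in 16.6% of 27025 promoters of the same length. GGGCGG matched 1 time in P4ha1, 2 times in P4ha2 and 5 times in P4ha3, and occurred in 7 of the 8 members (all but Plod3) and in 32.9% of all promoters. CCAAT was present in 2 members (P4hb and Plod3) against 34.5% of promoters, TATAAA in 1 (Plod1) against 13.0%, and the CArG box, which serum response factor binds, in 0 against 1.40%. These are matches of letters in a fixed window and not tested sites.

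The authors had named 16 subtypes from expression in these same cells, so differences between subtypes are given as descriptions. Early and later forms of a subtype were joined, and reads were summed over the cells of 1 mouse and class where there were at least 10 cells, which gave 64 libraries in 12 classes. Precursors of myofibroblasts and smooth muscle are called contractile precursors. The mice gave 311 to 633 cells and 294154721 to 671766116 reads each. Levels are CPM, read counts scaled to the size of the library with TMM, and levels of different genes are compared only as RPKM, which is CPM per kilobase of exon. The labelled fibroblast classes carried their own markers: the 6 alveolar fibroblast markers summed to 16757 to 30483 CPM in alveolar libraries (median elsewhere 1351), the 6 adventitial markers to 1503 to 19928 in adventitial libraries (median elsewhere 150). Fibroblast precursors held 25681 and 21909 CPM of the alveolar markers, inside the alveolar range, and male hyperoxic fibroblasts 12438. The 6 airway smooth muscle markers summed to 8958 to 23196 CPM in airway and 12180 to 27664 in vascular smooth muscle. Their sum did not set these classes apart. The 6 myofibroblast markers summed to 12330 to 19331 CPM in myofibroblasts, but also to 4676 to 28037 in airway smooth muscle and 11008 to 23416 in vascular smooth muscle, so they did not set myofibroblasts apart from these classes. Alveolar fibroblasts at E18.5 stood apart: they were 14 and 24 cells with 16695672 reads together, and the female library held 1031 CPM of 7 epithelial markers (highest in a library of any other class or age 127) and 486 CPM of 7 immune markers (highest in any other such library 131).

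Per kilobase, P4hb was the most abundant member, first of the 10 in 55 of 64 libraries and first or second in all 64, with a median of 337 RPKM. P4hb encodes protein disulfide isomerase, the beta subunit of prolyl 4-hydroxylase, which also serves other proteins as a folding enzyme. Pcolce followed at a median of 121 RPKM and was first in 8 libraries, and Serpinh1 had a median of 77.9 RPKM. The other 7 members had medians between 4.8 RPKM (P4ha2) and 17.5 RPKM (Bmp1). P4ha3 was at once the second most abundant member in 12 libraries and the least abundant in 18. P4ha2 was last in 20 libraries and Plod2 in 14. The log2 class means of P4ha3 had an SD of 2.66 between classes, against 1.66 for Pcolce and 0.53 for Serpinh1, the widest and the narrowest of the 10.

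Serpinh1, the gene of the collagen chaperone HSP47, was read in every class and varied least between classes. Its level in adventitial fibroblasts ran from 201 to 656 CPM with a median of 309 over 10 mice, and the medians of the other classes lay between 74.0 CPM (striated muscle, 1 library of 16 cells) and 212 CPM (contractile precursors). The ranges of all 6 tested classes overlapped. After each cell was thinned to 100000 reads, the median share of cells with a Serpinh1 read was 97.4% in adventitial fibroblasts, 75.7% in alveolar fibroblasts and 73.6% in pericytes. In adventitial fibroblasts the female and male values were 294 and 325 CPM before birth (E18.5), then 201 and 229 at P1, 336 and 266 at P7, and 509 and 656 at P21. The P21 mice lay above both P7 mice, by 0.93 ± 0.32 (SE) on the log2 scale, which was not called (edgeR adjusted p = 0.405). Relative to its client, adventitial fibroblasts held 4.71 and 5.01 Serpinh1 reads per 100 Col1a1 reads at E18.5, 1.48 and 1.76 at P7 and 2.63 and 3.16 at P21. Myofibroblasts, which had less Col1a1, held 14.2 to 22.0 in their 6 libraries.

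**Figure D1:**
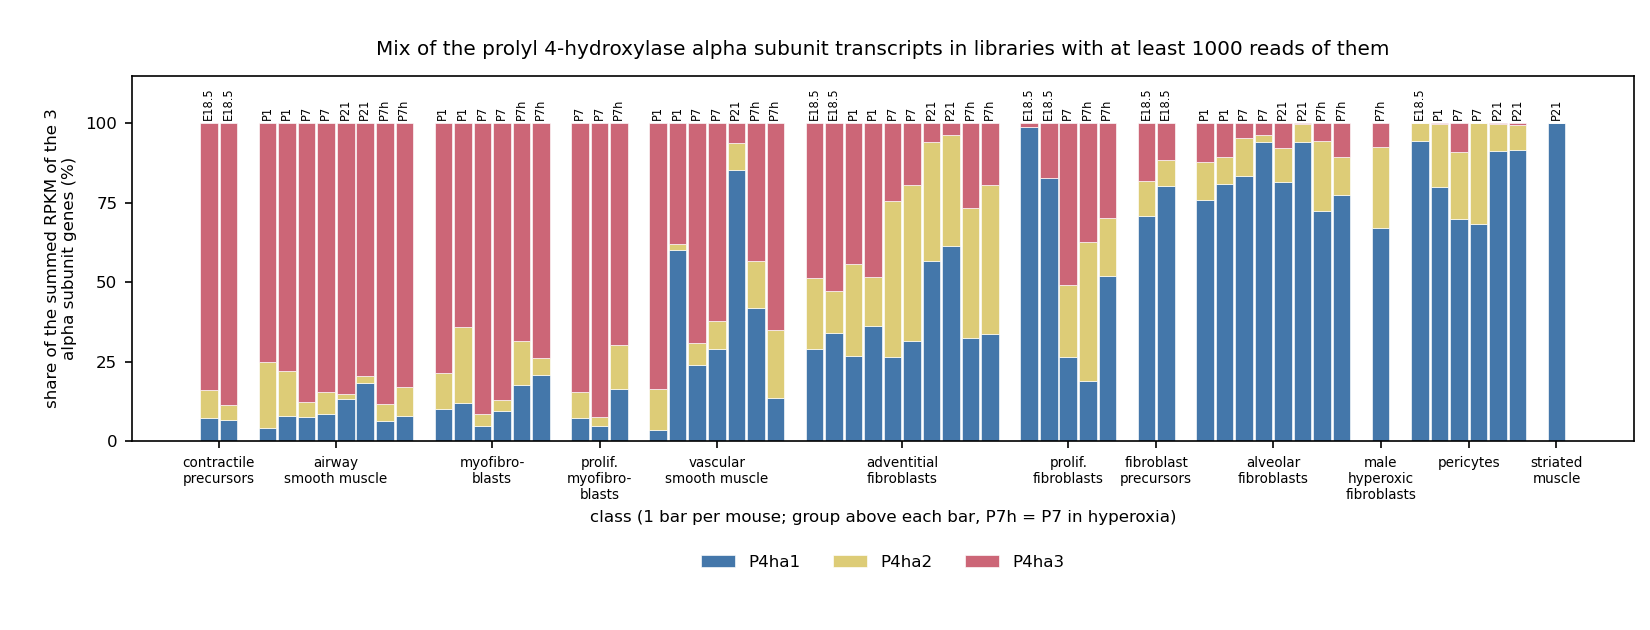
Share of the summed RPKM of P4ha1, P4ha2 and P4ha3 taken by each gene (vertical axis, percent), 1 bar per mouse, in the libraries with at least 1000 reads of the 3 genes, grouped by class on the horizontal axis with the group of each mouse above its bar. P4ha3 took 75.2 to 88.2% in airway smooth muscle, P4ha1 took 72.3 to 94.2% in alveolar fibroblasts, and the leading gene changed with age in adventitial fibroblasts.

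The 3 alpha subunit genes divided the mesenchyme. P4ha3 led in most libraries of the contractile classes and P4ha1 in alveolar fibroblasts and pericytes, while adventitial fibroblasts used all 3. In libraries with at least 1000 reads of the 3 genes, P4ha3 made up 75.2 to 88.2% of their summed RPKM in 8 of 8 airway smooth muscle libraries and 64.1 to 91.6% in 6 of 6 myofibroblast libraries. It also led in both contractile precursor libraries (84.0 and 88.7%), in all 3 libraries of proliferating myofibroblasts and in 5 of 7 of vascular smooth muscle. In vascular smooth muscle P4ha1 led in the male at P1 (60.0%) and the female at P21 (85.2%). The male at P21, with 414 reads of the 3 genes, was not counted. P4ha1 made up 72.3 to 94.2% in 8 of 8 alveolar libraries and 68.2 to 94.3% in 6 of 6 pericyte libraries, and it led in both libraries of fibroblast precursors. In adventitial fibroblasts P4ha3 led at E18.5 and P1, P4ha2 led at P7 in normal air and in hyperoxia, and P4ha1 led at P21 with 56.6% in the female and 61.4% in the male. The plot of shares by library shows this order within each class.

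P4ha3, which encodes the third catalytic subunit, had the widest spread between classes. Its level ran from 201 to 713 CPM in airway smooth muscle (median 401, 8 mice) and from 112 to 480 CPM in myofibroblasts (median 188, 6 mice), and these ranges overlapped each other. Both lay wholly above pericytes (0.0634 to 9.27 CPM, median 0.172) and alveolar fibroblasts (0.0833 to 60.9 CPM, median 3.29). The highest alveolar value was that of the female at E18.5, with 225 reads, 50.7% of them from 1 cell. Adventitial fibroblasts, from 7.11 to 242 CPM, overlapped with both sides. The median share of cells with a P4ha3 read after thinning was 80.3% in airway smooth muscle, 69.5% in myofibroblasts, 28.3% in vascular smooth muscle, 2.67% in alveolar fibroblasts and 3.19% in pericytes. Without thinning, these shares were 82.6%, 73.9%, 36.3%, 6.88% and 7.92%, at median depths per cell of 794064, 845572, 716048, 679000 and 613350 reads. The contractile classes together (airway and vascular smooth muscle, myofibroblasts, proliferating myofibroblasts and contractile precursors) gave 96.5 and 98.2% of all P4ha3 reads of the female and male mouse at P7, with 47.9 and 56.8% of the cells.

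With age, P4ha3 fell in adventitial fibroblasts. Its values were 182 and 242 CPM at E18.5 (female and male), then 93.9 and 127 at P1, 60.6 and 44.6 at P7 and 14.2 and 7.11 at P21, so the 2 mice of each age lay wholly below those of the age before. The test over the 4 ages called it (edgeR adjusted p = 0.0151), as it called 1.14% of all genes tested. That call was lost without the male at P21 (adjusted p = 0.0881). In the male at P21, 55.3% of the 575 P4ha3 reads came from 1 of 86 cells. The share of adventitial cells with a P4ha3 read after thinning was 58.9 and 66.7% at E18.5 and 7.01 and 6.07% at P21. edgeR called none of the steps between neighbouring ages for P4ha3 there, the largest difference being -2.33 ± 0.48 (SE) log2 from P7 to P21 (edgeR adjusted p = 0.123), which DESeq2 called (adjusted p = 0.000364).

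In the contractile classes P4ha3 had other values by age. Myofibroblasts held 112 and 160 CPM at P1 and 480 and 378 at P7, a difference of 1.64 ± 0.36 (SE) log2 with no overlap between the mice, which was not called (edgeR adjusted p = 0.47). Without the male at P1 the difference was 2.12 log2 and passed the threshold (adjusted p = 0.0146). Airway smooth muscle held 301 and 501 CPM at P1, 524 and 713 at P7 and 201 and 294 at P21. From P7 to P21 the level was lower by 1.32 ± 0.45 (SE) log2, again without overlap and not called (edgeR adjusted p = 0.326). In vascular smooth muscle the mice had 103 and 76.7 CPM at P7 and 6.57 and 0.0589 at P21. That difference of -5.40 ± 1.75 (SE) log2 was not called by edgeR (adjusted p = 0.536) and was called by DESeq2 (adjusted p = 0.00286). At P21 the vascular smooth muscle libraries were of 33 and 19 cells with 128 and 1 P4ha3 reads, 96.1% of the female's from 1 cell.

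P4ha2 encodes another catalytic subunit, which like the others pairs with P4hb. It had its highest median in adventitial fibroblasts, 173 CPM (range 79.0 to 241), and the lowest medians of the 6 tested classes in alveolar fibroblasts (11.4 CPM) and pericytes (15.9 CPM). The adventitial range lay wholly above the alveolar one (0 to 18.0 CPM). In adventitial fibroblasts it stood at 166 and 120 CPM at E18.5, then 122 and 79.0 at P1, 241 and 223 at P7 and 180 and 132 at P21, highest at P7 in both sexes. The P7 mice exceeded the P1 mice by 1.24 ± 0.32 (SE) log2, which edgeR did not call (adjusted p = 0.83) and DESeq2 did (adjusted p = 0.0244).

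P4ha2 fell with age in airway smooth muscle. The female and male values were 166 and 183 CPM at P1, 56.9 and 114 at P7 and 7.57 and 16.3 at P21, with no overlap between ages. From P7 to P21 it fell by 2.85 ± 0.55 (SE) log2 (edgeR adjusted p = 0.0495, 1.08% of all genes called), and the test over the 3 ages called it too (adjusted p = 0.0298, 1.32% of all genes called). The share of cells with a P4ha2 read after thinning was 41.0 and 45.8% at P1, 22.9 and 22.7% at P7 and 3.34 and 4.01% at P21. At P21 1 cell gave 68.5% of the reads in the female and 83.1% in the male. The P21 call was lost whichever of the 8 libraries was left out (adjusted p from 0.0728 to 0.459), at log2 differences of -3.29 to -2.49. The test over ages lost it without the female or male at P1 (0.096 and 0.086) or at P21 (0.0824 and 0.0739).

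In alveolar fibroblasts P4ha2 was called higher at P1 than at E18.5. It was at 0 reads in the 38 alveolar cells at E18.5, and at 10.9 and 6.88 CPM in the female and male at P1, from 4938 reads. Set against a floor of 3 reads over the E18.5 libraries, the mean at P1 was 49.4-fold higher (edgeR adjusted p = 0.0457). P4ha2 was read in few alveolar cells: after thinning, in a median of 5.40% of the cells of a library and at most 10.4%. Reads of 1 cell are not independent and only 38 cells were read at E18.5, so this fold is not a lower limit. The comparison called 6.35% of all genes, and the median of all genes moved by 1.43 log2 in the same direction. Of all cells, 69 came from CD31 sorts and 2 from CD45 sorts, and without these P4ha2 was not called. The call was lost without any 1 of the 8 libraries of the other ages and of hyperoxia (adjusted p from 0.0669 to 0.203), and stood without either E18.5 library. The epithelial and immune markers of the female E18.5 library and the genes per cell at E18.5 are given above. Their part in this result was not tested. P4ha1, by contrast, was read at 161 CPM in the female and 0 CPM in the male at E18.5, where 57% of the female's 596 reads came from 1 cell.

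P4ha1, the catalytic subunit found in most tissues, overlapped between most classes. Adventitial fibroblasts held 74.2 to 204 CPM (median 123), pericytes 41.2 to 125 CPM (median 106), airway smooth muscle 20.7 to 94.8 CPM (median 55.7) and myofibroblasts 18.8 to 72.4 CPM (median 46.1). The 16 striated muscle cells, of 1 mouse, held 316 CPM, 53.7% of it from 1 cell. In adventitial fibroblasts P4ha1 was at 85.2 and 94.1 CPM at P7 and at 179 and 153 CPM at P21, without overlap and without a call (edgeR adjusted p = 0.475). In alveolar fibroblasts it was at 55.7 and 45.5 CPM at P7 and 90.7 and 151 at P21, which was not called either.

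P4hb had an SD of 0.81 between its log2 class means, close to that of P4ha1 (0.84) and below those of P4ha2 (1.29) and P4ha3. Its range was 1095 to 1640 CPM in adventitial fibroblasts, 817 to 1524 in airway smooth muscle, 976 to 1538 in myofibroblasts, 544 to 1126 in alveolar fibroblasts and 621 to 994 in pericytes, and all but the last of these overlapped with the adventitial range. In alveolar fibroblasts its values were 544 and 700 CPM at E18.5, then 880 and 967 at P1, 870 and 676 at P7 and 1011 and 1126 at P21. No comparison called it, in edgeR or in DESeq2.

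**Figure D2:**
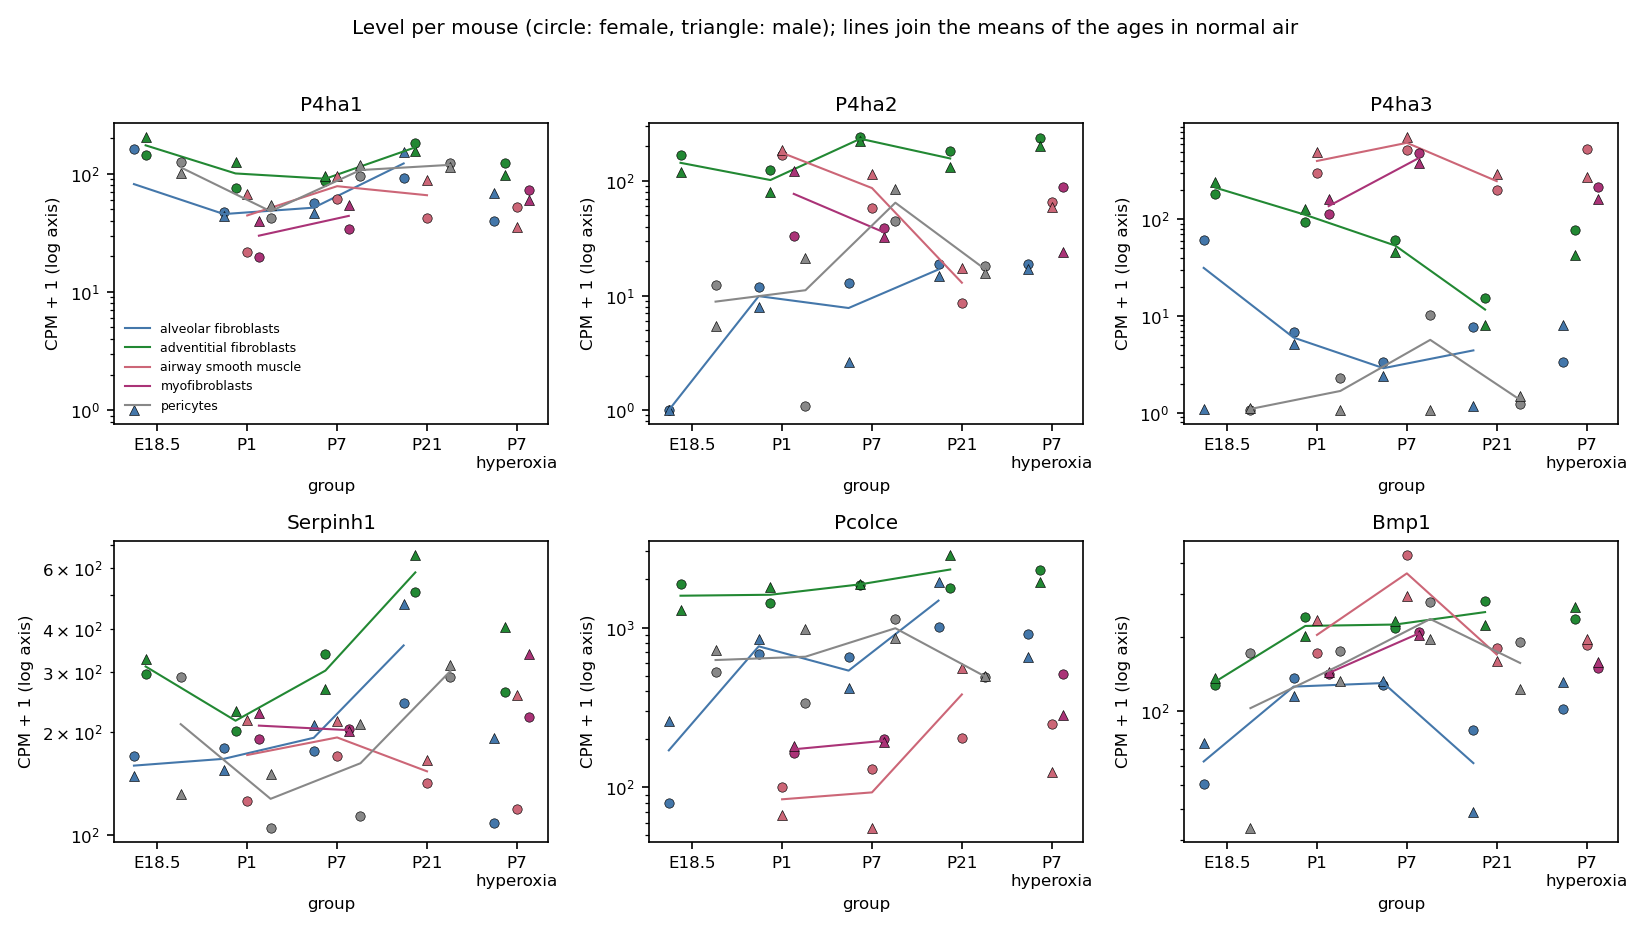
Level per mouse (vertical axis, CPM plus 1 on a log scale; circles females, triangles males) of 6 members by group (horizontal axis) in 5 classes, with lines through the means of the ages in normal air. P4ha3 in adventitial fibroblasts goes from 182 and 242 CPM at E18.5 to 14.2 and 7.11 CPM at P21, and P4ha2 in airway smooth muscle from 166 and 183 CPM at P1 to 7.57 and 16.3 CPM at P21.

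Among the lysyl hydroxylases, Plod1 led per kilobase in 35 of the 63 libraries with at least 1000 reads of them, Plod3 in 24 and Plod2 in 4. Plod1 and Plod2 hydroxylate lysines in the helix and in the telopeptides of fibrillar collagen, and Plod3 also adds glucose to collagen. Adventitial fibroblasts had the highest median of Plod1 (190 CPM, range 118 to 419) and of Plod2 (74.2 CPM, range 36.2 to 149), and pericytes that of Plod3 (101 CPM, range 20.6 to 211), with ranges that overlapped those of the other tested classes. With CPM averaged over cells, contractile precursors were highest in Plod3. In alveolar fibroblasts Plod1 stood at 265 and 293 CPM at E18.5, then 156 and 128 at P1, 106 and 99.9 at P7 and 168 and 146 at P21, without overlap between neighbouring ages. The first of these steps was not called by edgeR (log2 difference -0.98 ± 0.44 SE, adjusted p = 0.256) and was called by DESeq2 (adjusted p = 0.00317). In myofibroblasts Plod1 stood at 179 and 214 CPM at P1 and at 67.0 and 57.2 CPM at P7, 1.68 ± 0.39 (SE) log2 lower without overlap. This was not called by edgeR (adjusted p = 0.484), was called by DESeq2 (adjusted p = 0.00134), and passed edgeR's threshold without the female at P1 (log2 difference -2.04, adjusted p = 0.00914). Plod2 in airway smooth muscle was higher at P7 than at P1, at 57.4 and 46.5 CPM against 16.3 and 10.1, a difference of 2.00 ± 0.70 (SE) log2 that was not called (edgeR adjusted p = 0.904). In adventitial fibroblasts Plod2 stood at 149 and 132 CPM at E18.5, then 43.0 and 102 at P1, 74.4 and 68.4 at P7 and 55.1 and 36.2 at P21, with the E18.5 mice highest and no step called. Plod3 in pericytes stood at 60.0 and 116 CPM at E18.5, then 110 and 20.6 at P1, 211 and 88.9 at P7 and 107 and 94.7 at P21, where neighbouring ages overlapped. In alveolar fibroblasts its highest value, 240 CPM in the male at E18.5, rested on 1 cell for 95.6% of the reads. Whether reads were counted by strand is not given in the sources used here, so reads of Plod2, Plod3 and Pcolce may include those of genes that overlap them in GENCODE M21: Gm38391 for Plod2, Znhit1 and Mir702 for Plod3, and Fbxo24 and Gm36266 for Pcolce.

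Pcolce, whose product binds the C-propeptide and speeds its removal, was highest in adventitial fibroblasts. Its level there was 1288 to 2855 CPM with a median of 1864 in 10 mice. The medians of pericytes (625 CPM, highest 1125), alveolar fibroblasts (669 CPM, highest 1937), myofibroblasts (194 CPM, highest 510) and airway smooth muscle (127 CPM, highest 558) were lower, and only the alveolar range reached into the adventitial one. From P1 on, alveolar and adventitial fibroblasts together gave 62.4 to 93.4% of the Pcolce reads of a mouse. In alveolar fibroblasts Pcolce was at 79.0 and 260 CPM at E18.5, then 682 and 842 at P1, 655 and 417 at P7 and 1010 and 1937 at P21. At P21 the alveolar libraries also held the highest sums of the 5 mesothelial markers among alveolar libraries (701 and 890 CPM, against 140 to 457 at the other ages and in hyperoxia). In each alveolar library 1 of the 5 markers was above 1 CPM, and the part of this in the P21 values was not tested. The E18.5 mice lay below all later mice in Pcolce, and 93.5 and 98.6% of their Pcolce reads came from 1 cell each. The difference from E18.5 to P1 was 2.25 ± 0.59 (SE) log2 (edgeR adjusted p = 0.0652), and without the male at E18.5 it was 3.26 and passed the threshold (adjusted p = 0.0137). The test over the 4 ages did not call Pcolce (edgeR adjusted p = 0.107), but did without either E18.5 library (0.0346 without the female, 0.0231 without the male). The same test called P4ha2 without the female at E18.5 (0.0476).

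In airway smooth muscle Pcolce was at 100 and 66.1 CPM at P1, 129 and 54.6 at P7 and 203 and 558 at P21. The P21 mice lay above the P7 mice by 2.22 ± 0.65 (SE) log2, which edgeR did not call (adjusted p = 0.232) and DESeq2 did (adjusted p = 0.00612). The size rested on the male: without the female at P21 the difference was 3.20 (edgeR adjusted p = 0.0139), and over all single libraries left out it ranged from 0.79 to 3.20. The test over the 3 ages did not call Pcolce (edgeR adjusted p = 0.186) but did without the female at P21 (0.0185).

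Bmp1, the protease that cuts off the C-propeptide, overlapped between most classes. Its medians were 228 CPM in adventitial fibroblasts, 190 in airway smooth muscle, 174 in vascular smooth muscle, 173 in pericytes and 154 in myofibroblasts, with overlapping ranges. Alveolar fibroblasts had the lowest median of the 6 tested classes, 108 CPM, and their range of 37.8 to 135 CPM lay below that of airway smooth muscle (159 to 432) and of myofibroblasts (141 to 210). Of the ages in normal air, P7 had the highest Bmp1 values in both smooth muscle classes. The mice held 172 and 235 CPM at P1, 432 and 293 at P7 and 179 and 159 at P21 in the airway. In vascular smooth muscle they held 91.6 and 134 CPM at P1, 214 and 465 at P7 and 142 and 174 at P21. In airway smooth muscle the difference from P7 to P21 was -1.10 ± 0.38 (SE) log2, without overlap and not called (edgeR adjusted p = 0.339).

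Counted over the members, few tests passed. Members with an unadjusted p under 0.05 are counted here and below without the share of all genes at that level. No excess of members is read from those counts. In alveolar fibroblasts edgeR called 1 of 10 members from E18.5 to P1 (6.35% of all genes tested), 0 from P1 to P7 (0%), 0 from P7 to P21 (0.0702%) and 0 in the test over 4 ages (0.408%). Unadjusted p-values under 0.05 were found for 2, 0, 1 and 2 members. DESeq2 called P4ha2 and Plod1 in the first step, where it called 23% of all genes, and 0 members in the next 2 (1.38% and 6.77% of all genes). The medians of the 10 log2 differences were 0.32, -0.35 and 0.73, beside 1.43, -0.06 and -0.02 over all genes.

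In adventitial fibroblasts edgeR called 0 members from E18.5 to P1 (0.176%), 0 from P1 to P7 (0%), 0 from P7 to P21 (0.131%) and 1, P4ha3, over the 4 ages. Here 2, 2, 3 and 4 members had unadjusted p-values under 0.05. DESeq2 called 0, 1 (P4ha2) and 1 (P4ha3) in the steps, beside 5.14%, 2.11% and 5.59% of all genes. The medians were -0.58, 0.04 and 0.10, beside 0.18, -0.07 and 0.11 over all genes, and 8 of 10 members lay below 0 from E18.5 to P1. Those 2 with unadjusted p-values under 0.05 in that step were Plod1, from 419 and 230 to 174 and 192 CPM, and Bmp1, from 127 and 135 to 240 and 202 CPM, in both of which the groups did not overlap.

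Airway smooth muscle had 0 members called by edgeR from P1 to P7 (0% of all genes), 1 from P7 to P21 and 1 over the ages. Unadjusted p-values under 0.05 numbered 1, 4 and 5. DESeq2 called 0 and 2 (P4ha2 and Pcolce) in the steps, beside 2.93% and 8.52% of all genes, and the median differences were 0.16 and -0.31, beside 0.19 and -0.12 over all genes. In vascular smooth muscle edgeR called 0 members from P1 to P7 (0%), 0 from P7 to P21 (0.0887%) and 0 over the 3 ages (0.0645%), with 1, 1 and 1 at an unadjusted p under 0.05. DESeq2 called 0 and 1 (P4ha3), beside 3.56% and 6.65% of all genes. The members' median from P7 to P21 was -0.80 there, beside -0.10 over all genes. In pericytes edgeR called 0 in each step (0.042%, 0% and 0.0504% of all genes from E18.5 on) and over the ages (0.118%), with 0 at an unadjusted p under 0.05. DESeq2 called 0 there, beside 5.56%, 4% and 3.72% of all genes. In myofibroblasts edgeR called 0 from P1 to P7 (0%), with 2 at an unadjusted p under 0.05, and DESeq2 called both (P4ha3 and Plod1), beside 5.17% of all genes. Apart from 14 cells at P7, 2 at P21 and 1 at E18.5, the 4 males in normal air were sequenced in 1 run, so the male values compare ages nearly within a run. The females at P7 and P21 were sequenced in different runs, apart from 2 cells of the P7 female. Within the males, P4ha3 in adventitial fibroblasts differed by -2.49 log2 between P21 and P7, and P4ha2 in airway smooth muscle by -2.74.

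**Figure D3:**
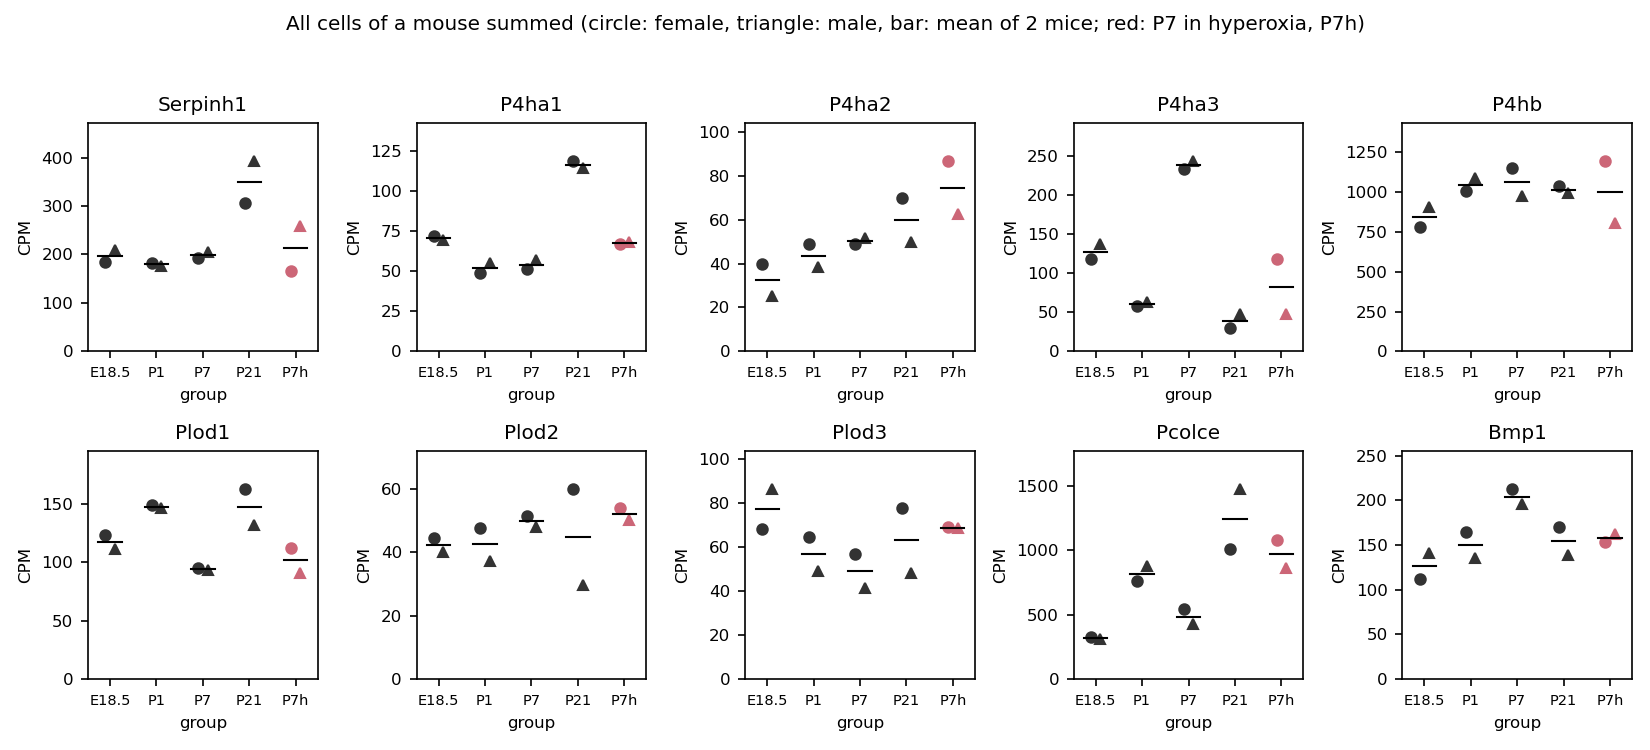
Level of each of the 10 members (vertical axis, CPM) in all cells of a mouse summed, by group (horizontal axis), with circles for females, triangles for males, bars for the mean of 2 mice and red for P7 in hyperoxia (P7h). P4ha3 stands at 233 and 243 CPM at P7 and at 29.8 and 47.3 CPM at P21, while P4ha1 goes between the same ages from 51.3 and 56.6 to 118 and 114 CPM.

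Summed over all cells of a mouse, P4ha3 fell and P4ha1 and Pcolce rose between P7 and P21. P4ha3 went from 233 and 243 CPM to 29.8 and 47.3 CPM, a difference of -2.62 ± 0.42 (SE) log2 (edgeR adjusted p = 0.00459). P4ha1 went from 51.3 and 56.6 to 118 and 114 CPM, a difference of 1.11 ± 0.23 (SE) log2 (edgeR adjusted p = 0.0166), and Pcolce from 540 and 425 to 1011 and 1473 CPM, a difference of 1.36 ± 0.30 (SE) log2 (edgeR adjusted p = 0.0193). These were 3 of 10 members called, beside 9.97% of all genes, and the groups did not overlap for any of them. Each call was lost without the male at P7 (edgeR adjusted p = 0.0535, 0.109 and 0.201), those of P4ha1 and Pcolce also without the female at P7 (0.103 and 0.0715), and that of Pcolce without the male at P21 (0.0591). Serpinh1 went from 192 and 205 to 306 and 392 CPM, a difference of 0.80 ± 0.25 (SE) log2 that edgeR did not call (adjusted p = 0.0686) and DESeq2 did (adjusted p = 0.0284), as it did the 3 above and 20.8% of all genes.

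In such sums fewer cells of a type and less RNA per cell cannot be told apart, and the makeup of the mice differed. The contractile classes were 47.9 and 56.8% of the cells at P7 and 18.1 and 24.4% at P21, and myofibroblasts went from 25.6 and 32.3% to 0%. They held 76.6 and 94.9% of the P4ha3 reads at P21. Adventitial fibroblasts went from 8.25 and 9.82% of the cells to 30.7 and 27.7%, and held 58.6 and 61.6% of the Pcolce reads at P21. From E18.5 to P1 and from P1 to P7 edgeR called 0 members (1.22% and 0.22% of all genes), with 2 and 3 at an unadjusted p under 0.05. DESeq2 called 1 in each, beside 6.63% and 5.51% of all genes: Pcolce, from 327 and 313 to 760 and 878 CPM, and P4ha3, from 57.7 and 62.6 CPM at P1 to the P7 values above. In edgeR their adjusted p-values were 0.062 and 0.0918, and each passed the threshold without some libraries: Pcolce without the female or male at P21 (0.0185 and 0.0204), P4ha3 without either of these (0.0315 and 0.031) or without the female or male in hyperoxia (0.0403 and 0.039).

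No member was called between hyperoxia and normal air at P7 within a class, and the members with an unadjusted p under 0.05 were P4ha3 and Pcolce in myofibroblasts and Bmp1 in airway smooth muscle. edgeR called 0 in alveolar fibroblasts, adventitial fibroblasts, myofibroblasts, airway smooth muscle and vascular smooth muscle, and 0% of all genes in each of the 5. Unadjusted p-values under 0.05 were found for 0, 0, 2, 1 and 0 members, and DESeq2 called 0 in each, beside 1.53%, 2.51%, 2.81%, 0.95% and 1.76% of all genes. The hyperoxia mice were sequenced in runs that held no other mouse, apart from 9 cells of the male, so run and hyperoxia cannot be told apart. Genes per cell differed between these groups as well: at 100000 reads a cell of the hyperoxia mice had a median of 3800 and 4515 genes, against 2441 and 2340 at P7 in normal air.

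**Figure D4:**
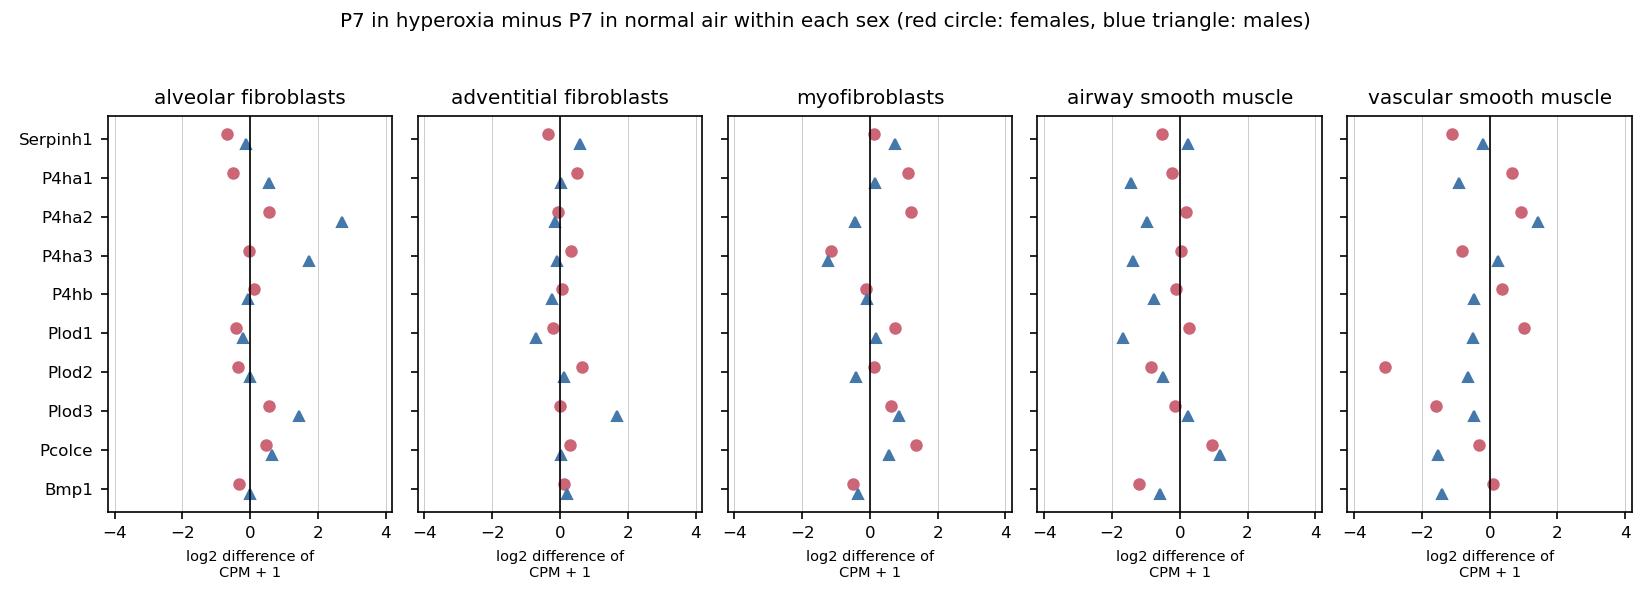
Difference between P7 in hyperoxia and P7 in normal air (horizontal axis, log2 of CPM plus 1) for each member (vertical axis) within females (red circles) and males (blue triangles) in 5 classes. P4ha3 lies at -1.15 and -1.24 in myofibroblasts, and Pcolce lies above 0 in both sexes in 4 of the classes and below 0 in vascular smooth muscle.

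P4ha3 stood in myofibroblasts at 480 and 378 CPM at P7 in normal air and at 215 and 160 CPM in hyperoxia, lower in both sexes (by 1.15 in females and 1.24 in males on the log2 scale) and without overlap. The fitted difference was -1.19 ± 0.36 (SE) log2 (edgeR adjusted p = 0.594). The share of myofibroblasts with a P4ha3 read after thinning was 75.7 and 63.4% in normal air and 81.5 and 84.9% in hyperoxia, which goes against the level, so no order is read from it. Pcolce in myofibroblasts stood at 199 and 190 CPM in normal air and 510 and 284 CPM in hyperoxia, a difference of 1.00 ± 0.36 (SE) log2 (edgeR adjusted p = 0.72). In airway smooth muscle Pcolce was at 129 and 54.6 against 249 and 124 CPM, where the groups overlapped, and Bmp1 at 432 and 293 against 185 and 195 CPM, where they did not (log2 difference -0.92 ± 0.38 SE, edgeR adjusted p = 1). Adventitial fibroblasts in hyperoxia held P4ha2 at 234 and 203 CPM beside 241 and 223, and P4ha3 at 76.0 and 42.1 beside 60.6 and 44.6, with the groups overlapping for both. Those adventitial libraries held all 5 mesothelial markers above 1 CPM (685 and 768 CPM in sum), as did the female in normal air (250 CPM), while in the male in normal air none was above 1 CPM (0.081 CPM in sum). The part of these markers in the adventitial values was not tested. Alveolar fibroblasts held Pcolce at 655 and 417 CPM in normal air and 911 and 653 in hyperoxia, and Serpinh1 at 175 and 208 against 108 and 191, with overlapping groups for both. Their P4ha2 was at 11.9 and 1.62 CPM against 17.9 and 16.1, without overlap, where the sexes differed in size (0.55 log2 in females and 2.71 in males). The 55 cells labelled as male hyperoxic fibroblasts, all of 1 mouse, held P4hb at 495, Pcolce at 607, Serpinh1 at 198 and P4ha3 at 3.54 CPM.

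The median member difference under hyperoxia was 0.10 in alveolar fibroblasts, 0.16 in adventitial fibroblasts, 0.47 in myofibroblasts, -0.49 in airway smooth muscle and -0.33 in vascular smooth muscle, beside 0.05, 0.13, -0.10, -0.11 and 0.03 over all genes. The share of cells with a read after thinning was above both normal mice in both hyperoxia mice for 9, 10, 10, 8 and 7 of the 10 members in these classes, and for 64.3%, 66.2%, 66.1%, 43% and 47.9% of all genes, with the higher numbers of genes per cell given above. A direct test asked whether classes differed in their response to hyperoxia. It called a difference for 0 members and 0% of all genes in each of the 3 pairs among alveolar fibroblasts, adventitial fibroblasts and myofibroblasts, with 0, 2 and 3 members at an unadjusted p under 0.05 in adventitial minus alveolar, myofibroblasts minus alveolar and myofibroblasts minus adventitial cells. The interaction was not run in DESeq2. P4ha3 in myofibroblasts minus adventitial fibroblasts was furthest from 0 among those of the last pair, at -1.32 ± 0.29 (SE) log2 (edgeR adjusted p = 0.53). Over all cells, hyperoxia called 0 members in edgeR (0.249% of all genes), with 2 at an unadjusted p under 0.05. The same 2 were called by DESeq2, which called 4.58% of all genes: Pcolce, at 971 ± 154 against 483 ± 81.3 CPM (SD, n = 2, DESeq2 adjusted p = 0.0381), and P4ha3, at 82.5 ± 49.8 against 238 ± 6.85 CPM (SD, n = 2, DESeq2 adjusted p = 0.00949). In the hyperoxia mice contractile cells were 30.6 and 17.8% of all cells.

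The other genes of the pathway were read from 4 lists. Of 21 further collagen processing genes, Pcolce2, a second enhancer of the C-proteinase, was the one called within a class between neighbouring postnatal ages. From P7 to P21 it rose in airway smooth muscle from 7.92 ± 0.65 to 1107 ± 250.1 CPM (SD, n = 2; edgeR adjusted p = 0.0208), 1 of the 19 genes tested there, and in vascular smooth muscle from 28.1 ± 12.5 to 1184 ± 358 CPM (SD, n = 2; edgeR adjusted p = 0.0213), 1 of 18. The list's medians were 0.02 and -0.17 log2, beside -0.12 and -0.10 over all genes. Over all cells Pcolce2 rose from E18.5 to P1 by 2.23 and from P7 to P21 by 2.64 log2 (edgeR adjusted p = 0.00637 and 0.000778), and Adamts2, which cuts the N-propeptide, from P7 to P21 by 1.23 log2 (edgeR adjusted p = 0.0208). Colgalt2, a collagen galactosyltransferase, was called higher in alveolar fibroblasts at P1 than at E18.5, where it had 0 reads.

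Among the 11 fibrillar collagen genes, Col27a1 fell in airway smooth muscle from P7 to P21 by 3.65 log2 (edgeR adjusted p = 0.023), the 1 called of 10 tested. Over all cells Col3a1 and Col5a3 rose by 1.48 and 4.44 log2 and Col27a1 fell by 1.65 log2 between the same ages (edgeR adjusted p = 0.0226, 0.0279 and 0.00235). The median of the list was 0.74 there and that of the 10 members 0.28, beside 0.02 over all genes. Of 12 general chaperones of the endoplasmic reticulum, Dnajb9 rose over all cells from P7 to P21 by 1.66 log2 (edgeR adjusted p = 0.0166), with a median of 0.50 for the list. Of 12 genes induced by hypoxia, the same comparison called Adm and Slc2a1 higher (2.50 and 1.90 log2) and Egln3 and Ankrd37 lower (-2.89 and -3.27 log2), with a median of -0.41. Over all cells Bnip3 was lower by 1.68 log2 at P1 than at E18.5, with 10 of 11 genes of that list below 0 and a median of -0.78, beside -0.01 over all genes. In alveolar fibroblasts from E18.5 to P1 the chaperone list had Sdf2l1 called and the hypoxia list Slc2a1, both higher.

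As a measure of likeness, log2(CPM + 1) was correlated over the 64 libraries with 9467 genes of at least 10 CPM on average. The 3 likest genes of each member, in order, were these. For the beta subunit P4hb they were Rcn3, Col5a1 and Fkbp10 (r = 0.84, 0.79 and 0.78), of which the last encodes a prolyl isomerase that acts on collagen. For P4ha3 they were Prss35, Net1 and Entpd1 (0.84, 0.82 and 0.81), for P4ha2 Bace2, Nbl1 and Wif1 (0.73, 0.70 and 0.70), and for P4ha1 Rab10, Emc10 and Plin3 (0.67, 0.65 and 0.64). For Plod1 they were Ifitm2, Ssr2 and Sec62 (0.81, 0.76 and 0.76), for Plod2 1700030K09Rik, Atf1 and Glb1 (0.67, 0.66 and 0.64), and for Plod3 Ctsa, Itm2c and Tmem165 (0.73, 0.73 and 0.73). For Pcolce they were Serping1, C1ra and Sparc (0.78, 0.74 and 0.73), for Bmp1 Mmp14, Elovl1 and Tmem59 (0.78, 0.78 and 0.77), and for Serpinh1 Timp2, Hexa and Col1a2 (0.60, 0.60 and 0.59). P4ha3 correlated with Acta2 at r = 0.54 and Pcolce at r = -0.39, and the members' r with Col1a1 ran from 0.04 (P4ha1) to 0.56 (Pcolce). These libraries share mice, runs and depth, and r is a description. Among single cells within the 17 libraries of at least 100 cells, r with Col1a1 had a median of 0.27 for Serpinh1 (range -0.01 to 0.55), the highest of the 10 members. Single cells carried much of some counts: over 50% of the reads came from 1 cell in 29.1% of the 55 libraries with at least 100 reads of P4ha2 and 23.1% of the 52 of P4ha3, against 3.13% of the 64 of Serpinh1 and 1.56% of the 64 of P4hb.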

How the data were processed

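Reads were mapped with STAR 2.5.2b and counted per gene with HTSeq 0.10, per the submitters' processing notes. The deposited values are these raw counts, 1 column per cell. The notes list GRCh38, a human build name, so the mouse build and annotation are not given in the sources used here. No molecular identifiers are named, so counts are of reads. Reads were summed per mouse and joined subtype (at least 10 cells), scaled by TMM and tested with edgeR 4.0.16 (quasi-likelihood, groups plus sex, R 4.3.3) at a Benjamini-Hochberg adjusted p of 0.05 over all genes left by filterByExpr, each class on its own and all cells of a mouse. The hyperoxia by class test had mouse as a block, since each mouse gave cells of both classes. DESeq2 1.42.0 was an alternative. Exon lengths came from GENCODE M21 and promoters from RefSeq (8 of 10 members matched, without Plod2 and Bmp1). Fits were tested on simulated data, where most 4-fold changes were missed in every comparison. A member that was not called is therefore not shown to be unchanged. For shares of cells, 168 cells under 100000 reads were left out. Doublets were not called. All 10 members entered every comparison. Other genes were named where called (up to 4 per list and comparison), or as the 3 likest of a member. Members and lists were chosen with earlier results of these data known.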

Additional observations from a re-analysis of the deposited data

Results flagged for a closer look

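For 9 pairs of classes, both mice of a member's later age lay above both of the earlier age in one class and below them in the other. Only pairs with a log2 difference of at least 1 in each class were kept, so pairs with smaller opposite differences are not listed. These differences between classes were not tested.

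For P4ha2 from P7 to P21, the log2 difference in alveolar fibroblasts minus that in airway smooth muscle was 4.42. In the same comparison the difference was 3.40 against pericytes and 3.98 against vascular smooth muscle. In pericytes and vascular smooth muscle most P4ha2 reads came from single cells: at P7, 1 cell gave 62.9 and 68.9% in pericytes and 93.2 and 98.6% in vascular smooth muscle, and their part in these differences was not tested. From P1 to P7, P4ha2 in adventitial fibroblasts minus airway smooth muscle came to 2.34, and in pericytes minus airway smooth muscle to 4.11, where the female pericytes at P1 held 1 read.

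P4ha3 from P1 to P7 came to -3.15 in alveolar fibroblasts minus myofibroblasts and to -2.75 in adventitial fibroblasts minus myofibroblasts. Alveolar levels of P4ha3 were low: the male held 4.20 CPM at P1 and 1.40 at P7. A median of 2.67% of alveolar cells had a P4ha3 read after thinning, and the part of this in the difference was not tested. Pcolce from P7 to P21 came to 2.40 in alveolar fibroblasts minus pericytes and to -3.25 in pericytes minus airway smooth muscle.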

How the results depend on the processing

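No called member changed direction under an alternative. In alveolar fibroblasts from E18.5 to P1, 1 member was called. The count was 2 with scaling to total reads, with DESeq2, with cells weighted equally and with 1 fit over all classes, 5 with at least 20 cells a library, and 0 without the CD31 and CD45 sorts or with only the 4 mice compared. Over the ages in alveolar fibroblasts the count of 0 became 5 with at least 20 cells and 1 with 1 fit, and the count of 1 in adventitial fibroblasts became 0 with 1 fit. In airway smooth muscle from P7 to P21 the count of 1 became 2 with DESeq2 and 0 with cells weighted equally, only 4 mice or 1 fit. Over the ages there it became 0 with cells weighted equally or 1 fit. DESeq2 called 1 where edgeR called 0 in adventitial fibroblasts (P1 to P7, and P7 to P21) and vascular smooth muscle (P7 to P21), and 2 in myofibroblasts (P1 to P7). Over all cells from E18.5 to P1, 0 became 1 with DESeq2, without sex in the fit or with cells weighted equally, and 2 with only 4 mice. From P1 to P7, 0 became 1 with DESeq2, without sex or with only 4 mice. From P7 to P21, 3 became 1 with only 4 mice. In hyperoxia over all cells, 0 became 2 with DESeq2. Where the cause is not in fewer libraries or cells, it was not tested.

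With single libraries left out, counts ranged from 0 to 4 in alveolar fibroblasts from E18.5 to P1 and from 0 to 5 over their ages. They ranged from 0 to 1 over the ages in adventitial fibroblasts, in airway smooth muscle (P7 to P21, and over the ages), over all cells from E18.5 to P1 and from P1 to P7, and in the interaction of adventitial minus alveolar fibroblasts. They ranged from 0 to 3 in myofibroblasts from P1 to P7 and over all cells from P7 to P21, and stayed at 0 in all other comparisons. With sex in place of the mouse block, the 3 interactions called 0 members, as with the block. Without both E18.5 libraries of alveolar fibroblasts, an alternative chosen after seeing the data, 0 members were called in the 3 later comparisons of that class, as with them. Scaling to total reads moved the median log2 difference of all genes by -0.32 in alveolar fibroblasts and airway smooth muscle and by -0.21 over all cells from P7 to P21. Of 4409 member values under alternatives, 263 had the other sign, 21 of them among 1104 whose main difference was at least 1. The class with the highest mean level was the same for 7 of 10 members with CPM averaged over cells (not for P4hb, Plod3 and Bmp1) and for 9 of 10 with scaling to total reads (not for P4hb). Fits with at least 20 cells gave no value for pericytes (E18.5 to P1, and over ages) or vascular smooth muscle (P1 to P7, and over ages), and the tests over ages were not run in DESeq2 or with only 4 mice.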
